A study of Arabidopsis thaliana with 15 samples.

Results

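The comparison described here sets roots exposed to naxillin for 6 h against roots sampled before treatment, over 22746 probe sets of the Affymetrix ATH1 array, which carries short probes for Arabidopsis genes. Its members are all probe sets that are not controls, on the 3 arrays of naxillin 6 h and the 3 arrays before treatment, that is 6 of the 15 arrays of the series. All roots came from Col-0, the wild type ecotype, and had germinated in the presence of 10 µM NPA, which blocks polar auxin transport and so keeps lateral roots from starting. The naxillin 6 h group had then been moved, at 3 days after germination, to 50 µM naxillin, and the roots before treatment were taken from the NPA medium at 0 h. The remaining groups, which were used for the spread and for 2 further comparisons, had received 50 µM naxillin for 2 h, or 10 µM of the synthetic auxin NAA for 2 h or 6 h. Each sample pooled 500 root sections from which the meristems had been cut away, and each group came from 3 independent experiments. No roots moved to medium without a compound were analysed here, so naxillin, the transfer, the removal from NPA and the 6 h that had passed cannot be told apart in the contrast with roots before treatment.

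Naxillin is a synthetic compound that starts lateral roots without being an auxin itself. Earlier genetic work tied its action to the peroxisomal pathway that converts indole-3-butyric acid (IBA), an auxin precursor, into the active auxin indole-3-acetic acid. When auxin reaches a cell, Aux/IAA repressor proteins are degraded, auxin response factors are freed, and early response genes are transcribed, among them those of the GH3 enzymes, which inactivate auxin by joining it to amino acids, and those of the repressors themselves. In the pericycle, the cell layer from which lateral roots arise, the response factors ARF7 and ARF19 switch on LBD16 and LBD29, transcription factors needed for the first divisions of a lateral root.

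Values are log2 levels as deposited, so a difference of 1 stands for a 2-fold change, and levels are compared only within a probe set. Pairs of naxillin 6 h arrays correlated at r of 0.984 to 0.9957 over all probe sets, pairs before treatment at 0.9932 to 0.9958, and pairs across the groups at 0.9801 to 0.9948, so some naxillin 6 h arrays differed from each other about as much as from the roots before treatment. Naxillin 6 h replicate 3 stood apart from the other 2 arrays of its group, at -25.1 on the first principal component of all 15 arrays against -41.3 and -51.2. Of the marker genes listed for root tissues, only the root hair expansins EXPA7 and EXPA18 had a named probe set. EXPA7 read 8.05, 7.85 and 7.14 in naxillin 6 h roots, against 7.20, 6.93 and 6.47 before treatment, with overlapping groups and no call (adjusted p = 0.242). Markers of the endodermis, xylem, phloem, pericycle, root cap and meristem could not be read, and in whole root sections fewer cells of a type and less RNA per cell cannot be told apart.

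Naxillin for 6 h was followed by a small set of changes. At an adjusted p under 0.05 in the limma fit, 219 of 22746 probe sets were called (0.963%), of which 132 were higher (0.58%) and 87 lower (0.382%) in naxillin 6 h roots than before treatment. At least a 2-fold change was reached by 62 of the higher (0.273% of all) and 18 of the lower probe sets (0.0791%). An unadjusted p under 0.05 was reached by 13.4% of all probe sets. Their differences ran from -2.72 to 2.66 on the log2 scale, with a median size of 0.95 for the higher and 0.65 for the lower calls, while the median over all probe sets was -0.03. In every one of the 219 calls the 3 naxillin 6 h arrays did not overlap the 3 arrays before treatment, as was the case for 18.3% of all probe sets. Of the 132 higher probe sets 64 stood for 1 named gene, and of the 87 lower ones 44 did. The largest rise of all, 2.66, belonged to a probe set with no gene in the annotation used.

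**Figure D1:**
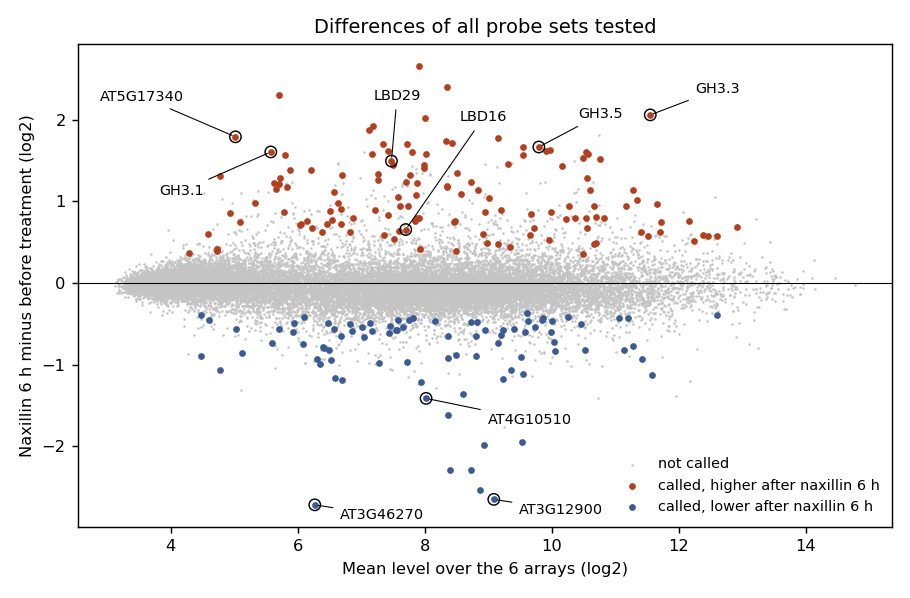
Difference between naxillin 6 h and before treatment (log2, vertical axis) against the mean level over the 6 arrays (log2, horizontal axis) for all 22746 probe sets, with the 132 higher calls in red, the 87 lower calls in blue and the rest in grey; open rings mark the genes that are written out. The calls lie at the upper and lower edge of a narrow grey band, over the whole range of levels.

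How many probe sets were called rested on single arrays. Leaving out naxillin 6 h replicate 1, 2 or 3 gave 90, 106 and 133 calls, and leaving out replicate 1, 2 or 3 before treatment gave 239, 50 and 63, with the lone pair of arrays assumed to vary like the other groups. The share of higher calls, 60.3% (132 higher, 87 lower), also depended on the scaling between arrays. It was 78.6% after median centring (206 higher, 56 lower), 72.4% after quantile normalization (173 higher, 66 lower) and 8.3% after scaling on the poly-A spike-in transcripts (142 higher, 1569 lower), which moved the median of all probe sets to -0.18. Differences below are therefore relative to the overall level of an array.

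Of the 5 measured GH3 genes 3 rose and 0 fell, against 0.58% called higher among all probe sets, with a list median of 1.61. GH3.3 (AT2G23170), which conjugates indole-3-acetic acid, read 12.63, 12.64 and 12.47 in naxillin 6 h roots, against 10.83, 9.84 and 10.88 before treatment. The naxillin arrays lay close together and all above the highest array before treatment, a 4.17-fold rise (log2 difference 2.06, SE 0.34, adjusted p = 0.0130). It was the largest rise of any named gene. GH3.5 (AT4G27260, also listed as WES1), which acts on auxin and on salicylic acid, read 10.65, 10.78 and 10.45 in naxillin 6 h roots, against 8.55, 9.21 and 9.12 before treatment. That was a 3.18-fold rise (log2 difference 1.67, SE 0.25, adjusted p = 0.00813), again with no overlap between the groups. GH3.1 (AT2G14960) read 6.48, 6.28 and 6.37 in naxillin 6 h roots, against 4.81, 5.05 and 4.46 before treatment. Its naxillin arrays lay within a narrow range, all above the dim arrays before treatment, for a 3.05-fold rise (log2 difference 1.61, SE 0.18, adjusted p = 0.00396).

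The other GH3 genes did not pass the test. GH3.17 (AT1G28130), which prefers glutamate as the amino acid, read 10.31, 10.39 and 10.39 in naxillin 6 h roots, against 10.63, 10.76 and 11.12 before treatment. All naxillin arrays were thus below all arrays before treatment, but the difference of -0.47 missed the threshold (adjusted p = 0.227, 95% interval -0.83 to -0.12). GH3.9 (AT2G47750) stayed near the low end of the scale, between 4.18 and 4.19 in naxillin 6 h roots and between 4.21 and 4.34 before treatment. Its naxillin arrays, too, were all below those before treatment, by a very small gap. GH3.1 and GH3.5 were called with any 1 of the 6 arrays left out. GH3.3 was called in 4 of those 6 fits and had an adjusted p of 0.0648 without replicate 2 before treatment and of 0.0537 without naxillin 6 h replicate 1, over a range of 0.0201 to 0.0648.

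**Figure D2:**
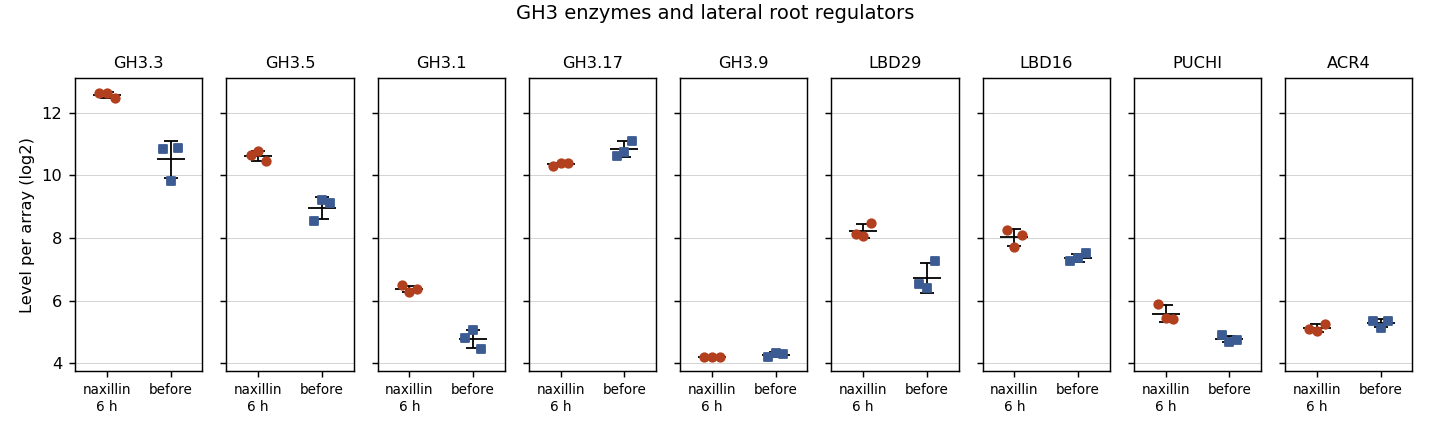
Level per array (log2) of the 5 measured GH3 genes and of 4 lateral root regulators in naxillin 6 h roots (red circles, left) and before treatment (blue squares, right), 3 arrays each; the bars give the mean ± SD. The groups stand apart with naxillin 6 h higher for GH3.3, GH3.5, GH3.1, LBD29, LBD16 and PUCHI. Naxillin 6 h is lower without overlap for GH3.17 and, by a very small gap, for GH3.9, while ACR4 overlaps.

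Of 26 lateral root regulators listed 4 were measured, of which 2 rose and 0 fell, against 0.58% called higher among all probe sets, with a list median of 0.74. LBD29 (AT3G58190) read 8.12, 8.06 and 8.48 in naxillin 6 h roots, against 6.52, 6.39 and 7.26 before treatment. Every naxillin array exceeded every array before treatment, for a 2.82-fold rise (log2 difference 1.5, SE 0.20, adjusted p = 0.00615). LBD16 (AT2G42430) read 8.25, 7.72 and 8.11 in naxillin 6 h roots, against 7.25, 7.35 and 7.51 before treatment. The groups lay apart by a narrow gap, for a 1.58-fold rise (log2 difference 0.66, SE 0.13, adjusted p = 0.0332). PUCHI (AT5G18560), an AP2/ERF transcription factor that shapes the young primordium, read 5.88, 5.45 and 5.42 in naxillin 6 h roots, against 4.89, 4.68 and 4.74 before treatment. Its groups did not overlap either, and the difference of 0.82 (SE 0.18) just missed the threshold at an adjusted p of 0.0528. With the replicate number as a block in the limma fit, PUCHI was called (adjusted p = 0.0237). ACR4 (AT3G59420), a receptor kinase that limits formative divisions in the pericycle, read 5.08, 5.03 and 5.26 in naxillin 6 h roots, against 5.36, 5.13 and 5.35 before treatment, and gave a difference of -0.16 (adjusted p = 0.703).

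The call of LBD29 remained with each of the 6 arrays left out in turn, with differences of 1.33 to 1.76. LBD16 was called in 1 of the 6, the fit without naxillin 6 h replicate 2, and its adjusted p in the fits with 1 array left out ran from 0.0167 to 0.121. The direction was the same in each of them, with differences of 0.54 to 0.81.

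Few other genes of the auxin pathway could be read, and with 0.963% of all probe sets called, the absence of calls in lists this short is at the background. Of 29 Aux/IAA genes listed 7 were measured. In the limma fit 0 of the 7 were called, 0 had an unadjusted p under 0.05, and 1 was called with array weights. Among all probe sets 13.4% had such a p, and with array weights 4.01% were called higher and 7.83% lower. The differences of the 7 Aux/IAA genes lay between -0.15 and 0.31 with a median of 0.01. IAA29 (AT4G32280) had the largest difference, with 5.23, 5.43 and 4.90 in naxillin 6 h roots and 4.85, 4.99 and 4.79 before treatment (0.31, adjusted p = 0.405). WAG2 (AT3G14370), a kinase of the family that directs auxin efflux carriers and the 1 measured gene of auxin transport, gave 0.12. Of the 7 genes of auxin synthesis and inactivation 0 were called by limma, 2 had an unadjusted p under 0.05, and 1 was called with array weights. The shares of all probe sets beside these counts are those just given. AT1G14130 came nearest, with 10.24, 10.45 and 10.27 in naxillin 6 h roots against 9.87, 9.62 and 9.78 before treatment, and a difference of 0.57 (adjusted p = 0.0932). YUC2, YUC4 and YUC6, which encode flavin monooxygenases of auxin synthesis, gave differences of -0.08, 0.08 and -0.26. Only 3 genes of IBA conversion and peroxisomal beta-oxidation had a named probe set, and IBR3 was not among them. AIM1 (AT4G29010), a multifunctional enzyme of the peroxisomal cycle, read 11.26, 11.28 and 11.25 in naxillin 6 h roots and 11.28, 11.22 and 11.23 before treatment. PEX4, a peroxisomal import factor, and ICL, the isocitrate lyase of the glyoxylate cycle, gave differences of -0.06 and 0.13. By limma 0 of the 3 were called and 0 had an unadjusted p under 0.05.

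Beyond these, the 12 largest rises among named genes were led by AT4G36430, one of the class III peroxidases, enzymes that act on the cell wall and on reactive oxygen. It read 8.55, 8.60 and 9.87 in naxillin 6 h roots, against 7.54, 6.10 and 7.32 before treatment, a 4.05-fold rise (log2 difference 2.02, SE 0.43, adjusted p = 0.0451) in which naxillin 6 h replicate 3 was highest. Prx37 (AT4G08770), a second peroxidase, read 6.43, 6.23 and 7.09 in naxillin 6 h roots, against 5.26, 4.82 and 4.98 before treatment (log2 difference 1.57, adjusted p = 0.0181). In the whole peroxidase list 2 of 51 measured members rose and 1 fell, against 0.58% and 0.382% of all probe sets, with a median of 0.04. The call of AT4G36430 was lost in 5 of the 6 fits with 1 array left out, and that of Prx37 in 4 of 6, at adjusted p-values of up to 0.174 and 0.0924.

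Most other large rises belonged to genes known in the files by their locus tag alone. AT5G17340 read 5.96, 5.60 and 6.17 in naxillin 6 h roots, against 4.23, 3.92 and 4.21 before treatment, a 3.46-fold rise between tight groups (log2 difference 1.79, SE 0.24, adjusted p = 0.00615). AT3G24240 read 9.25, 8.86 and 9.52 in naxillin 6 h roots, against 7.42, 6.98 and 7.99 before treatment (log2 difference 1.75, SE 0.23, adjusted p = 0.00456). Both were called with any 1 of the 6 arrays left out. AT2G34810 read 8.20, 8.52 and 9.0 in naxillin 6 h roots, against 7.29, 6.74 and 6.56 before treatment (log2 difference 1.71, adjusted p = 0.0123). AT2G39430, with a difference of 1.58 (adjusted p = 0.0116), read 9.02, 8.77 and 8.65 in naxillin 6 h roots, against 8.05, 6.86 and 6.78 before treatment, where replicate 1 stood above the other arrays. The same array was the highest before treatment for AT4G13580, which read 10.70, 10.45 and 10.00 in naxillin 6 h roots, against 9.63, 8.11 and 8.42 before treatment (log2 difference 1.66, adjusted p = 0.0332). AT1G72490 and AT2G23910 completed the 12, with differences of 1.61 and 1.58 at adjusted p-values of 0.0458 and 0.0430. In AT2G23910 naxillin 6 h replicate 3, at 11.17, lay above the other naxillin arrays at 9.88 and 9.93. AT1G72490 and AT2G23910 were each called in 1 of the 6 fits with 1 array left out, AT4G13580 in 2, AT2G39430 in 3 and AT2G34810 in 4, with adjusted p-values of up to 0.205.

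The 12 largest falls among named genes reached from -2.72 to -0.93. AT3G46270 had the largest, with 4.74, 4.38 and 5.60 in naxillin 6 h roots, against 7.88, 6.68 and 8.31 before treatment (log2 difference -2.72, SE 0.56, adjusted p = 0.0398). AT3G12900 read 8.71, 6.40 and 8.17 in naxillin 6 h roots, against 10.37, 10.12 and 10.74 before treatment (log2 difference -2.65, SE 0.45, adjusted p = 0.0132), and naxillin 6 h replicate 2 was far below the other 2 arrays of its group. AT3G20340 read 7.91, 8.46 and 7.45 in naxillin 6 h roots, against 9.47, 10.26 and 10.04 before treatment (log2 difference -1.98, SE 0.34, adjusted p = 0.0132). These 3 genes fell by at least 3.95-fold. AT4G10510 was the most even of the falls, with 7.15, 7.26 and 7.52 in naxillin 6 h roots, against 8.31, 8.92 and 8.94 before treatment (log2 difference -1.41, SE 0.17, adjusted p = 0.00438). Of the 12 falls it was the one called with any 1 of the 6 arrays left out.

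ATMPK13 (AT1G07880), a mitogen-activated protein kinase and the one fall in this set with a symbol, read 6.95, 6.33 and 7.10 in naxillin 6 h roots, against 7.63, 7.78 and 7.91 before treatment (log2 difference -0.98, adjusted p = 0.0132). AT2G18980, the peroxidase that fell, read 9.01, 8.56 and 8.90 in naxillin 6 h roots, against 9.63, 9.70 and 10.34 before treatment (log2 difference -1.07, adjusted p = 0.0373). The remaining falls were AT1G19960 at -1.61, AT4G19370 at -1.36, AT1G73120 at -1.12, AT5G19970 at -1.11, AT3G62930 at -0.94 and AT3G25130 at -0.93. None of their groups overlapped, since the choice of genes asked for that. AT3G62930 lost its call whichever of the 6 arrays was left out, at adjusted p-values of 0.0782 to 0.116. AT3G46270, AT1G19960 and AT2G18980 were each called in 1 of the 6 such fits, with adjusted p-values of up to 0.179, 0.185 and 0.157. AT1G73120 and AT3G25130 were called in 2, AT3G20340 in 3, and AT3G12900, AT4G19370, AT5G19970 and ATMPK13 in 4.

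**Figure D3:**
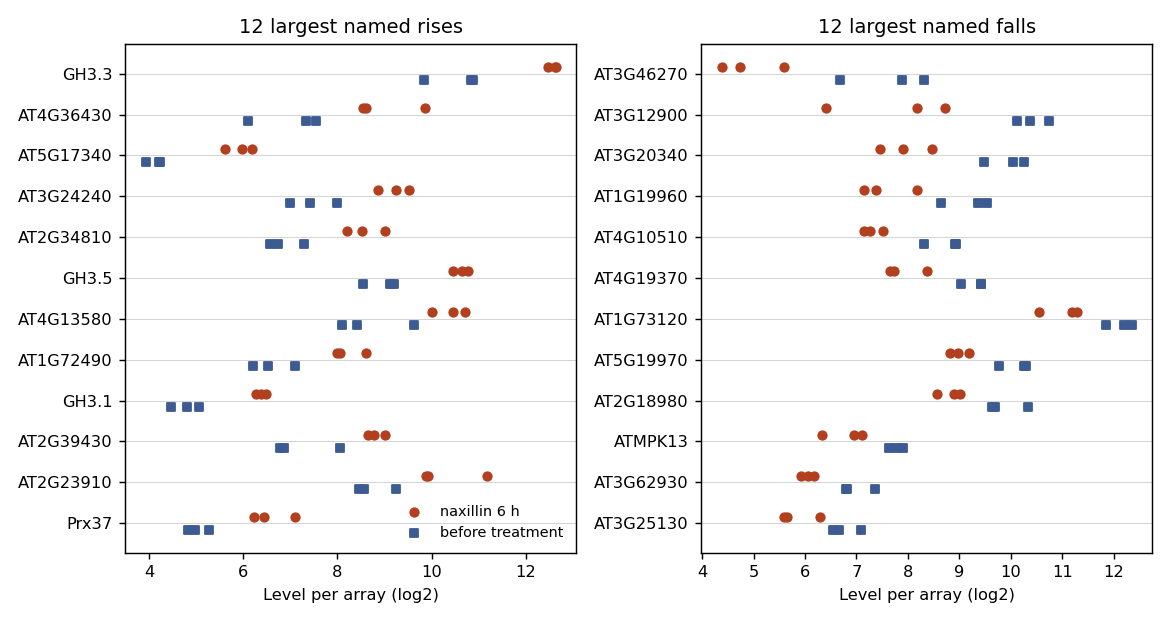
Level per array (log2, horizontal axis) of the 12 largest named rises (left) and the 12 largest named falls (right), with naxillin 6 h as red circles above before treatment as blue squares, 3 arrays each. In no gene shown do the groups overlap, since the choice of genes asked for that; the gap is narrow for AT4G13580 and AT3G25130 and wide for GH3.3 and AT3G20340.

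Genes of growth and division gave 1 call with naxillin at 6 h, which is near the background. Over 200 genes in 8 lists of ribosome assembly, cytosolic ribosomal proteins, DNA replication and mitosis, 0 were higher and 1 was lower. With 0.963% called among all probe sets, so few calls say little of these lists. The differences of the 200 genes lay between -0.48 and 0.41 with a median of -0.15. An unadjusted p under 0.05 was reached by 11 of the 200, all of them lower, against 13.4% of all probe sets in either direction. The 1 call was DIM1A (AT2G47420), which modifies ribosomal RNA. It read 9.43, 9.42 and 9.34 in naxillin 6 h roots, against 9.77, 9.94 and 9.86 before treatment (log2 difference -0.46, adjusted p = 0.0220), and it was called in 1 of the 6 fits with 1 array left out. The 46 genes of the small and the 79 of the large ribosomal subunit had medians of -0.16 and -0.21. For 0 of these 125 genes did all naxillin arrays lie above all arrays before treatment, and for 4 of the 46 and 3 of the 79 all lay below, while the groups did not overlap, in either direction, for 18.3% of all probe sets. The Aurora kinase genes AUR1 and AUR3, which act in mitosis, both gave a difference of 0.08, and MCM7, a subunit of the replicative helicase, one of 0.32 (adjusted p = 0.616). AUR1 read 8.20, 7.85 and 8.21 in naxillin 6 h roots and 8.08, 7.85 and 8.08 before treatment. With array weights 15 of the 79 large and 8 of the 46 small subunit genes were called lower, against 7.83% of all probe sets in that fit, which gave naxillin 6 h replicates 1, 2 and 3 weights of 9.21, 0.65 and 0.41.

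Among enzymes of detoxification 1 of 20 measured members was called higher, against 0.58% of all probe sets, and a single call says little of the list. GSTU25 (AT1G17180), a glutathione transferase of the tau class that responds to foreign compounds, read 10.70, 10.97 and 10.97 in naxillin 6 h roots, against 10.02, 9.17 and 9.15 before treatment. That was a 2.70-fold rise (log2 difference 1.43, SE 0.23, adjusted p = 0.0102) with groups well apart. The other 11 glutathione transferases gave differences of -0.24 to 0.48, and GSTU22 (AT1G78340), for example, read 12.14, 12.20 and 12.17 in naxillin 6 h roots and 12.26, 11.81 and 11.63 before treatment. UGT73B4, a glycosyltransferase, and AER, an alkenal reductase, gave 0.42 and 0.48 and were not called. Both came from a list of 8 other xenobiotic-response enzymes, 4 with a positive and 4 with a negative difference. That list ran from -0.58 to 0.48 with a median of -0.01. NDB2, an alternative NADH dehydrogenase of mitochondria, read 10.19, 10.23 and 10.60 in naxillin 6 h roots, against 9.83, 9.63 and 9.73 before treatment, and missed the threshold at a difference of 0.61 (adjusted p = 0.0555). It was 1 of 3 measured genes in a list of mitochondrial stress response, whose differences ran from -0.91 to 0.61 with a median of 0.03. With the replicate number as a block in the limma fit, NDB2 and AER were called (adjusted p = 0.0402 and 0.0320). GSTU25 was not called without replicate 2 or without replicate 3 before treatment, at adjusted p-values of 0.0590 and 0.0562, over a range of 0.00240 to 0.0590.

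Genes of touch, wounding and immunity gave 2 calls of 12, both higher, against 0.58% called higher among all probe sets. WRKY22 (AT4G01250), a transcription factor of immune signalling, read 7.89, 8.22 and 8.12 in naxillin 6 h roots, against 7.15, 7.12 and 7.13 before treatment (log2 difference 0.94, adjusted p = 0.0212). AT1G51820, from the list of pattern-triggered immunity, read 5.41, 5.24 and 5.66 in naxillin 6 h roots, against 4.39, 3.62 and 4.36 before treatment (log2 difference 1.32, adjusted p = 0.0132). The other 5 members of each list were not called, and CML37 and CML38, calmodulin-like proteins that respond to touch, gave differences of -0.03 and 0.47. In each list 3 members had a positive and 3 a negative difference. The median was -0.01 for touch and wounding and -0.05 for immunity, with lowest differences of -0.59 and -0.33. A single call in each says little of the lists. WRKY22 was called in 2 and AT1G51820 in 4 of the 6 fits with 1 array left out, with adjusted p-values of up to 0.0846 and 0.0648.

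Of 109 measured pectin enzymes of the cell wall 0 rose and 1 fell, a share near the 0.963% called among all probe sets. AT1G05310, a pectin methylesterase by its list, read 6.95, 6.92 and 6.74 in naxillin 6 h roots, against 7.44, 7.58 and 7.36 before treatment, a small but even fall (log2 difference -0.59, SE 0.08, adjusted p = 0.00653) that was called with any 1 of the 6 arrays left out. Of the 11 xyloglucan endotransglucosylase/hydrolase (XTH) and expansin genes limma called 0, with differences of -0.94 for EXPB3 to 0.81 for EXPA7. Of them 3 had an unadjusted p under 0.05, against 13.4% of all probe sets. With array weights 3 were called, while that fit called 4.01% of all probe sets higher and 7.83% lower. The 6 nuclear photosynthesis genes had a median of -0.45 and 0 limma calls, with 3 at an unadjusted p under 0.05, all lower (13.4% of all probe sets, in either direction). Under spike-in scaling 2 were called lower, against 6.9% of all probe sets. PSAN, a subunit of photosystem I, read 8.55, 8.87 and 7.84 in naxillin 6 h roots, against 8.89, 9.51 and 9.11 before treatment (difference -0.75, adjusted p = 0.308). Both measured genes of aliphatic glucosinolate synthesis, all 8 of low-energy and amino acid catabolism, the clock gene GI and the iron regulator BHLH101 were also without a call.

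**Figure D4:**
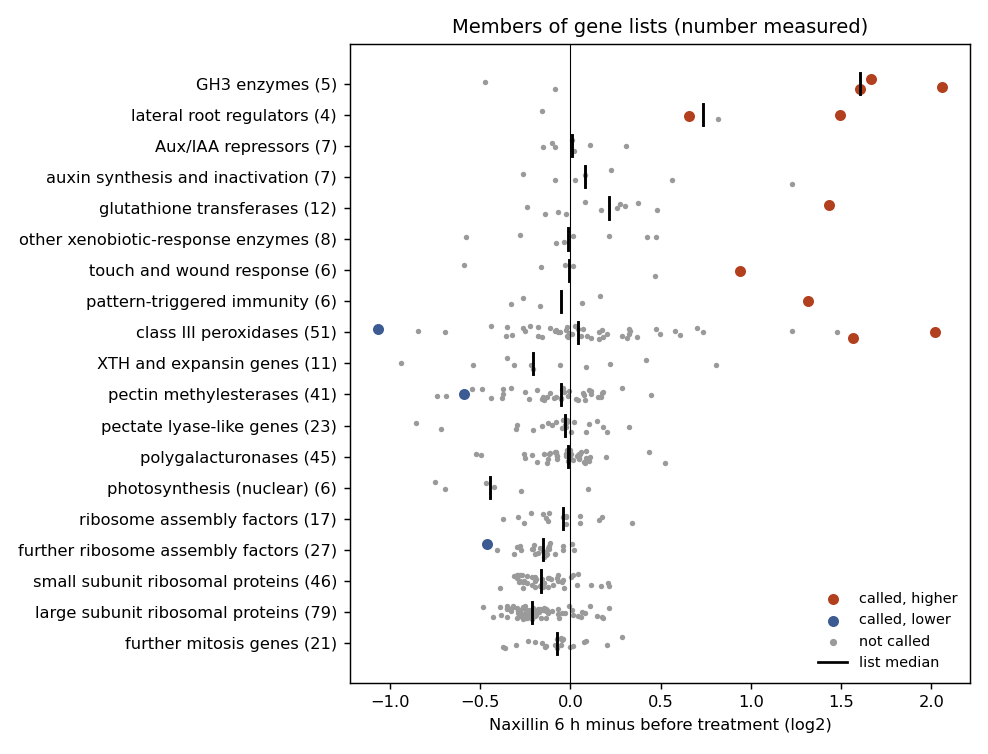
Difference between naxillin 6 h and before treatment (log2) of every measured member of 19 gene lists, 1 point per gene, with called members in red (higher) or blue (lower), the rest in grey, a black bar at the list median and the number measured in brackets. The GH3 and lateral root lists hold the largest shares of red points, and the ribosomal, mitosis and pectin lists cluster around their medians near 0.

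Whether the 6 h state differed from that at 2 h of naxillin was tested directly. Between naxillin 6 h and naxillin 2 h 520 probe sets were called (2.29%), 185 higher (0.813%) and 335 lower (1.47%) at 6 h. GH3.1 averaged 6.38 ± 0.10 at 6 h and 4.79 ± 0.27 at 2 h (SD, n = 3 each), a 3.01-fold difference (log2 1.59, adjusted p = 0.00119), and at 2 h it stood 0.02 from the roots before treatment. GH3.5 averaged 10.63 ± 0.17 at 6 h and 9.56 ± 0.63 at 2 h (log2 1.07, adjusted p = 0.0387). LBD29 averaged 8.22 ± 0.23 at 6 h and 7.29 ± 0.17 at 2 h (log2 0.93, adjusted p = 0.0277). PUCHI averaged 5.59 ± 0.26 at 6 h and 4.76 ± 0.24 at 2 h (log2 0.83, adjusted p = 0.0305). It passed this test, while its difference from roots before treatment did not in the fit without the replicate block. GH3.3 and LBD16 differed by 0.73 and 0.25 between the times and were not called (adjusted p = 0.354 and 0.417). GH3.3 had 12.59, 12.11 and 10.85 at 2 h, so its replicates were spread widely there.

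Among the other named rises, AT5G17340 averaged 5.91 ± 0.29 at 6 h and 3.94 ± 0.11 at 2 h (log2 1.97, adjusted p = 0.00182), the largest named rise between the times. AT3G24240 differed by 1.10 (adjusted p = 0.0234). The remaining 7 of the 12 rises did not pass the test between the times, and their difference from roots before treatment was 1.57 to 2.02 at 6 h and 0.75 to 2.07 at 2 h. For AT2G34810 it was 1.71 at 6 h and 1.63 at 2 h, and for AT2G39430 it was 1.58 at 6 h and 1.53 at 2 h. AT2G36690 and AT1G62770 were 1.51 and 1.48 higher at 6 h than at 2 h (adjusted p = 0.00704 and 0.00817). They stood 0.42 and 0.20 from roots before treatment at 6 h, and -1.09 and -1.28 at 2 h.

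The largest named falls between the times were in genes that stood above their level before treatment at 2 h. MSRB9 (AT4G21850), a methionine sulfoxide reductase that repairs oxidised proteins, averaged 8.01 ± 0.40 at 6 h and 10.44 ± 0.81 at 2 h (log2 -2.43, adjusted p = 0.00845), and 7.69 ± 0.41 before treatment (SD, n = 3 each). LEA4-5 (AT5G06760), a protective protein of water deficit, averaged 7.65 ± 0.94 at 6 h and 9.90 ± 0.25 at 2 h (log2 -2.25, adjusted p = 0.0305), and 7.45 ± 0.68 before treatment. AT5G19110 was 2.13 lower and XTH21 (AT2G18800), an enzyme that cuts and rejoins xyloglucan in the wall, 1.98 lower at 6 h than at 2 h (adjusted p = 0.00471 and 0.000111). XTH21 read 4.91, 4.76 and 5.22 at 6 h, against 6.66, 7.03 and 7.14 at 2 h. At 6 h it lay 0.35 below roots before treatment, with an adjusted p of 0.344. UGT73B4 and NDB2 were also lower at 6 h than at 2 h, by 0.80 and 0.94 (adjusted p = 0.0193 and 0.00435), whereas for GSTU25 and WRKY22 the differences of -0.60 and -0.46 were not called. AT4G10510, one of the 12 falls, was 0.97 lower at 6 h than at 2 h (adjusted p = 0.00999). The count of 520 fell to 198 without naxillin 2 h replicate 3, to 222 without naxillin 2 h replicate 2 and to 221 without naxillin 6 h replicate 1.

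At the same time point, most measured genes of the auxin response were lower with naxillin than with NAA. Between naxillin 6 h and NAA 6 h 11511 probe sets were called (50.6%), 6177 higher and 5334 lower with naxillin. The doses were 50 µM and 10 µM, so compound and dose cannot be told apart. GH3.1 averaged 6.38 ± 0.10 with naxillin and 12.45 ± 0.04 with NAA (SD, n = 3 each), a difference of -6.08 (adjusted p = 1.02e-11) and one of the 4 largest falls by the rule. GH3.5 and GH3.3 were 3.08 and 2.01 lower with naxillin (adjusted p = 1.64e-07 and 0.000179). LBD29 averaged 8.22 ± 0.23 with naxillin and 12.42 ± 0.12 with NAA, and LBD16 8.03 ± 0.27 and 11.01 ± 0.12 in the same order. PUCHI averaged 5.59 ± 0.26 with naxillin and 11.34 ± 0.15 with NAA, a difference of -5.76. IAA29, which was not called against roots before treatment, was 5.85 lower with naxillin than with NAA. Of the 7 Aux/IAA genes 4 were called lower, against 5334 of all 22746 probe sets.

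The growth lists were also lower. Of their 200 genes, 193 were lower with naxillin than with NAA and 0 were higher, with a median of -1.81 against 0.02 for all probe sets. Among all 22746 probe sets 5334 were called lower and 6177 higher. Ribosome assembly alone gave 44 of 44 lower, with differences of -3.81 to -1.01. Other genes were named for the size of their difference from NAA. AT3G53980 read 13.96, 13.94 and 13.94 with naxillin and 14, 13.94 and 13.93 before treatment, and it was 5.99 higher with naxillin than with NAA. AT4G30450 and the subtilase gene ATSBT5.2 were 6.10 and 5.68 higher with naxillin than with NAA, and -0.46 and -0.19 from roots before treatment. AT4G11190, 5.75 higher with naxillin than with NAA, gave 1.10 against roots before treatment and was not called (adjusted p = 0.173). AT1G67750 and AT1G04680, pectate lyase-like genes by their list, were 6.49 and 5.90 lower with naxillin than with NAA, and AT1G30760 6.25 lower.

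Among the 12 rises with naxillin, the response to NAA differed from gene to gene. The difference from roots before treatment, on the log2 scale, was 1.66 with naxillin and -3.69 with NAA for AT4G13580, 1.58 and -1.61 for AT2G39430, and 1.61 and -1.54 for AT1G72490. It was 1.79 with naxillin and 4.99 with NAA for AT5G17340, and 1.75 and 4.21 for AT3G24240. Both columns share the arrays before treatment, so only the direct differences bear a test. AT4G13580 was 5.35 higher with naxillin than with NAA (adjusted p = 1.44e-08), with 10.70, 10.45 and 10.00 against 4.79, 5.31 and 5.0. For Prx37 the direct difference was -0.94 (adjusted p = 0.0112), and for AT4G36430 it was -1.01 and not called in the limma fit without the block (adjusted p = 0.0674), but called with the replicate number as a block (adjusted p = 0.0244). The fall of AT2G18980 stood beside a rise with NAA: it read 9.01, 8.56 and 8.90 with naxillin and 12.89, 13.00 and 12.90 with NAA. AT3G46270 was 2.53 lower with naxillin than with NAA (adjusted p = 0.00161), and AT4G10510 0.94 lower (adjusted p = 0.000267).

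**Figure D5:**
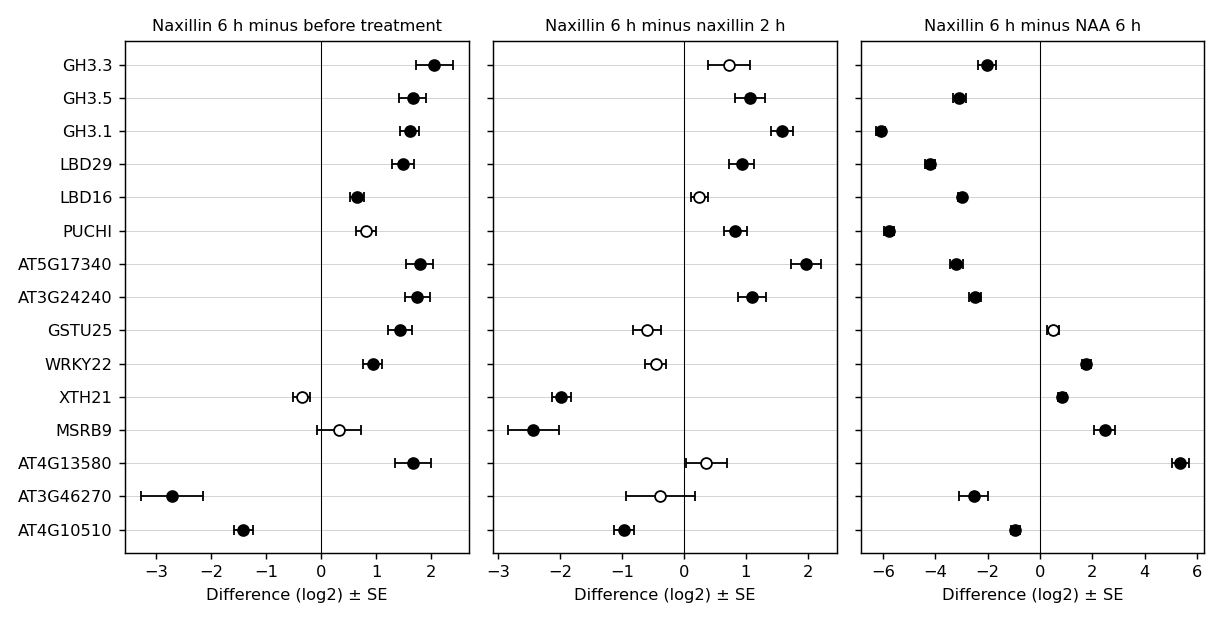
Differences (log2, points) with the standard error of the fit (bars) of 15 named genes for naxillin 6 h minus before treatment, minus naxillin 2 h and minus NAA 6 h, from left to right; filled points passed an adjusted p under 0.05. GH3.1 and LBD29 are above 0 in the left and middle panels and below 0 at the right, and XTH21 and MSRB9 pass in the middle panel but not at the left.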

How the data were processed

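The deposited values are log2 levels of 22810 probe sets on 15 arrays. Per the submitters' processing notes, the authors made them by RMA in affy 1.36.0, which corrects background, normalizes by quantiles and summarises probes, so a change of all transcripts together would be removed. Per the labels' protocols, total RNA was spiked with bacterial controls and labelled with biotin. The 64 control probe sets were left out. No depth applies to arrays, and 3 arrays per group limit the precision.

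All 15 arrays were fitted with limma 3.58.1 (R 4.3.3), 1 mean per group, 10 residual degrees of freedom, and Benjamini-Hochberg adjustment over 22746 probe sets. On simulated data, changes of 0.5, 1 and 2 log2 in this comparison were recovered in 39.6%, 89.6% and 100% of cases, with 5.34% false calls (200 of 22746 probe sets changed, over 5 simulated sets). The simulated noise was independent between arrays and equal in spread across them. The real arrays deviated together in part and differed widely in weight, so these rates may not hold for them. Figures were drawn with matplotlib 3.10.9 in Python 3.11.15.

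Gene names came from the platform annotation, for probe sets with exactly 1 gene (13513 of 22746; 503 had several, 8730 none), with 13436 matched to RefSeq locus tags of TAIR10.1. Where a gene had several probe sets, the brightest on average across the 15 arrays stood for it. Named genes are the 12 largest rises and falls among named calls without overlap, the 4 largest each way against naxillin 2 h and NAA 6 h, up to 4 called members of each list (2 by smallest p where none was called) and sentinels; other list members are given for completeness. Of 36 lists (734 genes), 175 genes had a named probe set, and lists of D-type cyclins, jasmonate, ethylene, gibberellin and brassinosteroid had none. Another 11 lists by locus tag (595 genes, 326 measured) were added once the number of named genes was known. The members and lists were chosen with earlier results of these data known. Promoter motifs were not analysed here.

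The text also gives, per list, members at an unadjusted p under 0.05. Same-numbered arrays of naxillin 6 h and NAA 6 h deviated together from their group means (r of 0.295 to 0.309, other pairs below 0), so replicate numbers pair the arrays there, as found from the data and not stated in the labels. Adjusted p-values are from limma fits without the replicate block unless stated otherwise, also against NAA 6 h. Alternatives were the replicate block, only the arrays of the comparison, a trended robust prior, array weights, 3 scalings, a filter on dim probe sets (mean under 6), stricter thresholds and leaving out arrays.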

Additional observations from a re-analysis of the deposited data

Results flagged for a closer look

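For 19 named or listed genes the difference between naxillin 6 h and naxillin 2 h itself passed the limma test. The change from roots before treatment was thus not the same at both times for these genes. Among all 22746 probe sets 520 passed (2.29%). The largest named differences between these times were a rule for naming genes, so those genes passed by choice. They were AT5G17340, GH3.1, AT2G36690, AT1G62770, MSRB9, LEA4-5, AT5G19110 and XTH21. The count of 19 therefore says little of the named genes as a set. Higher at 6 h than at 2 h were AT5G17340 by 1.97, GH3.1 by 1.59, AT2G36690 by 1.51, AT1G62770 by 1.48, AT3G24240 by 1.10, GH3.5 by 1.07, LBD29 by 0.93 and PUCHI by 0.83 on the log2 scale. Lower at 6 h were MSRB9 (-2.43), LEA4-5 (-2.25), AT5G19110 (-2.13), XTH21 (-1.98), XTH18 (-1.72), AT4G10510 (-0.97), NDB2 (-0.94), UGT73B4 (-0.80), UGT73B5 (-0.73), WRKY6 (-0.62) and UGT72B1 (-0.50). Of these genes GH3.1, GH3.5, LBD29, AT5G17340, AT3G24240 and AT4G10510 were also called against roots before treatment with any 1 of the 6 arrays left out. Groups of 3 arrays were too small for a test of single outlying arrays.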

How the results depend on the processing

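For naxillin 6 h against before treatment, 219 calls became 31 with only its 6 arrays, 2694 with array weights (913 higher, 1781 lower), 1711 with spike-in scaling, 39 at an adjusted p under 0.01, 80 at 2-fold or more and 41 without replicate 3 of every group. Leaving out 1 array gave 50 to 239 calls. Without dim probe sets 238 were called, and with the trended prior 191. For naxillin 6 h against naxillin 2 h, 520 calls became 44 with only its arrays, 4579 with array weights, 1612 with spike-in scaling (68 higher, 1544 lower), 120 at 0.01, 116 at 2-fold and 53 without replicate 3 of every group, and 198 to 574 with 1 array left out. For naxillin 6 h against NAA 6 h, 11511 calls became 4523 at 2-fold and 10534 to 11333 with 1 array left out. Spike-in scaling there gave 3230 higher and 13410 lower (19.4% higher), against 53.7% as deposited. The cause was not tested. Of 2653 values of 158 named genes under an alternative, 2421 kept their side of the threshold. A call was lost in 178 and gained in 54, and 0 of the called ones changed sign. Only 31 of these genes had a call to lose, so most of the values that kept their side came from genes without one. Of the 31 calls, 27 were lost with only the 6 arrays, 24 at an adjusted p under 0.01 and 23 without replicate 2 before treatment. With the replicate block, array weights or spike-in scaling 0 were lost. With only the 6 arrays, 3 of the 12 rises (GH3.1, GH3.5 and AT5G17340) and 0 of the 12 falls were called.

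With the replicate block the counts were 523 (naxillin 6 h against before treatment), 1048 (against naxillin 2 h) and 12146 (against NAA 6 h). Deviations of same-numbered arrays of naxillin 6 h and before treatment correlated at -0.01, 0.573 and 0.366, with 2 of 3 naxillin 6 h arrays correlating best with their own number. Those of naxillin 6 h and 2 h correlated at -0.19 to 0.593. Whether the numbers pair the arrays in these 2 comparisons was therefore not settled, and the main fits had no block. Against roots before treatment the block added calls for 7 named or listed genes (PUCHI, NDB2, AER, AT4G02230, AT3G13580, AT3G53190 and AT5G59680), at adjusted p-values of 0.0116 to 0.0479, and removed 0. Against naxillin 2 h it added 5 and removed 0. Against NAA 6 h, where the numbers pair the arrays, it added 6 and removed 0, and of the single-gene differences from NAA given above it changed the call of AT4G36430 alone.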
